A study of Homo sapiens with 24 samples.

Results

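The genes described are 9 transcription factors that specify hepatocytes: HNF4A, FOXA1, FOXA2, FOXA3, CEBPA, CEBPB, ONECUT1, NR5A2 and PROX1. They were chosen by name as a group, with earlier results of these data known. The m6A summits inside their RefSeq gene spans on hg38 were collected from 12 libraries. They are 9 of 20046 protein-coding genes with a single RefSeq span, of which 10299 held a summit in at least 1 library. All 9 held summits, from 13 in NR5A2 to 94 in HNF4A over the 12 libraries.

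The libraries come from HepG2, an established liver cancer cell line that was transduced with lentivirus, selected with puromycin and kept as stable lines. One line carried METTL14 with the substitution R298P, another carried METTL14 with D312A, another carried wild-type METTL14 (WT), and the control line carried EGFP. The labels record no deletion of the cells' own METTL14 in any line, each condition is 1 stable line, and what drives the cassette is not stated in the labels. Fragmented poly(A) RNA of 3 biological replicates per line was precipitated with an anti-m6A antibody, and 1 list of summits, the highest points of enriched peaks, was deposited for each precipitated library.

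METTL14 is the RNA-binding partner of METTL3, the enzyme that places N6-methyladenosine (m6A) on mRNA, where the mark influences splicing, translation and decay. Hepatocyte identity is kept by a small set of transcription factors that bind each other's promoters as well as those of liver genes. HNF4A is the central nuclear receptor of this network, the FOXA proteins open chromatin ahead of other factors, and the C/EBP proteins drive metabolic and acute-phase genes. ONECUT1, NR5A2 and PROX1 act in liver development and in bile acid and lipid metabolism.

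The lists held between 8669 summits in D312A replicate 2 and 15373 in EGFP replicate 1. They averaged 12424 ± 1139 summits in R298P, 11125 ± 2127 in D312A, 14177 ± 1358 in WT and 13966 ± 1357 in EGFP (SD, n = 3 each). A shorter list leaves fewer summits for any gene, so the counts and region calls of the 9 genes were also taken from equally long lists, the 8669 best summits of each library. This was not done for the splits by antisense genes, the PROX1 stretch or other genes. All 8 hepatocyte markers examined held summits, against 3 of 6 biliary and progenitor, 1 of 6 stellate and fibroblast, 3 of 5 blood and macrophage and 2 of 5 endothelial markers. Among these, KRT7, EPCAM, COL1A1, COL1A2, PTPRC, CD163, VWF and KDR had none in any library. Libraries of 1 line stood far apart in the hepatocyte markers, whose summits summed to between 7 and 61 in R298P, 1 and 71 in D312A, 22 and 84 in WT and 1 and 73 in EGFP libraries. The 9 transcription factors together varied less, with 28, 34 and 31 summits in R298P replicates 1, 2 and 3, 27, 19 and 25 in D312A, 38, 33 and 34 in WT, and 37, 37 and 28 in EGFP. This was 0.251% ± 0.0366 of each list in R298P, 0.213% ± 0.00954 in D312A, 0.248% ± 0.0197 in WT and 0.243% ± 0.0231 in EGFP (SD, n = 3 each). A higher summit count can come from more methylated sites, more RNA or deeper reads, and the lists alone do not tell these apart.

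In 2 of the genes summits reached the first transcribed bases, where sequence from RefSeq (GRCh38.p14) could be shown, and these stretches are printed because they hold summit positions. The promoter table held 7 of the 9 genes, all but FOXA2 and PROX1, with 50 bases after each start. The first stretch below is chr20:44401251-44401280 on the plus strand, bases 13 to 42 of the transcript that begins at the second of the 2 HNF4A starts, and the other is chr15:52790290-52790319 on the minus strand, bases 18 to 47 of ONECUT1. Capitals mark GGAC, 4 letters found in many m6A sites.
HNF4A: aGGACggtttgaaaggaaggcagagagggc
ONECUT1: ggctcaagctggccagcggggcgggcaggc
The HNF4A stretch held the summits of D312A replicate 2 and EGFP replicate 3, and the ONECUT1 stretch that of D312A replicate 3. GGAC was found in the first 50 bases of this HNF4A transcript, at base 14, and was not found on either strand of those of ONECUT1. On the sense strand it was present in 18.9% of the 35116 windows of this length in the table, and on either strand in 33.5%. The longer GGACT was in neither window, against 4.9% of windows on the sense strand and 9.62% on either.

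Merging summits that lay within 100 nt of a neighbour gave 60 regions in the 9 genes. Every library shared 5 of them, and 8 came from 1 library alone, or 8.33% and 13.3%, where the 34313 regions of all genes and intergenic space gave 9.91% and 35.8%. The 5 regions found everywhere lay in HNF4A, which had 2, and in FOXA3, ONECUT1 and PROX1. For each the position of the best summit in its own list was taken, as a percent from the top, so that low values mean strong peaks. The values of the deposited lists were used only for such ranks.

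**Figure D1:**
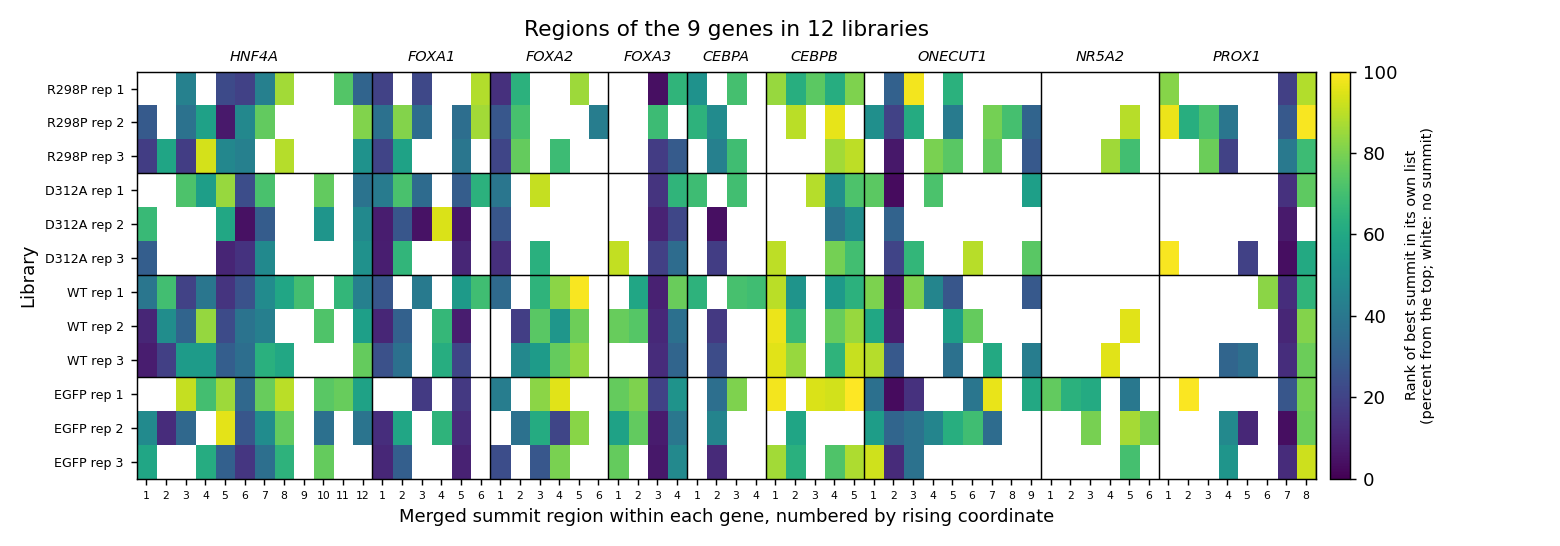
Rows are the 12 libraries and columns the 60 merged regions of the 9 genes, numbered within each gene by rising coordinate. Colour gives the rank of the best summit in its own list as a percent from the top (dark, strong), and white means no summit. HNF4A regions 5 and 6, FOXA3 region 3, ONECUT1 region 2 and PROX1 region 7 are filled in all 12 libraries.

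HNF4A, the nuclear receptor at the centre of the network, held as many summits as, or more than, 99.7% of the genes with a summit. This count was not adjusted for the span of 78898 nt and includes summits that also lie in an antisense gene, described below. The HNF4A span (chromosome 20, 44355699 to 44434596) held 12 regions in 3 places. Regions 1 to 4 lay between 44358816 and 44372712, after the first of the 2 annotated starts and before the second. Region 5 (44401278 to 44401353) began 40 nt and ended 115 nt after the second start. Regions 6 to 12 lay between 2906 and 4743 nt before the end of the span. Region 6 (44429853 to 44429884) had ranks of 19.3%, 46.6% and 43.6% in R298P replicates 1, 2 and 3, 23.5%, 4.59% and 14.7% in D312A, 25.1%, 37.9% and 36.1% in WT, and 33.7%, 26.6% and 15.9% in EGFP. All D312A values here were stronger than all WT values, and the other pairs of lines overlapped. Ranks from lists of different length describe each list and show no change between lines.

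HNF4A held 7, 7 and 8 summits in R298P replicates 1, 2 and 3, and 7, 6 and 5 in D312A, against 11, 9 and 9 in WT and 9, 9 and 7 in EGFP. All R298P and all D312A libraries were below all WT libraries, and both lines overlapped EGFP. R298P minus WT was -2.33 summits and D312A minus WT -3.67, each with an exact permutation p of 0.1 (two-sided), the smallest that 3 against 3 libraries allow. The signs held within each replicate number for R298P, with -4.0, -2.0 and -1.0.

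The HNF4A difference lay partly where another gene overlaps. Regions 1 to 4 also lie in the span of HNF4A-AS1, a noncoding antisense gene (44356744 to 44395706), and the lists carry no strand. Summits there numbered 1, 3 and 4 in R298P replicates 1, 2 and 3, 2, 1 and 1 in D312A, 4, 4 and 4 in WT, and 2, 3 and 2 in EGFP. D312A lay below WT in this stretch without overlap, and R298P replicate 3 reached the WT value. Outside it the counts were 6, 4 and 4 in R298P, 5, 5 and 4 in D312A, 7, 5 and 5 in WT, and 7, 6 and 5 in EGFP. Both substitution lines then overlapped WT. Within replicate pairs R298P minus WT was still -1.0, -1.0 and -1.0 outside the shared stretch (exact sign-flip permutation, p = 0.25, the smallest possible), a fit chosen after seeing the data. Within the shared stretch, region 1 followed the replicate number, with a summit in all 8 libraries of replicates 2 and 3 and, of replicate 1, in WT alone.

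**Figure D2:**
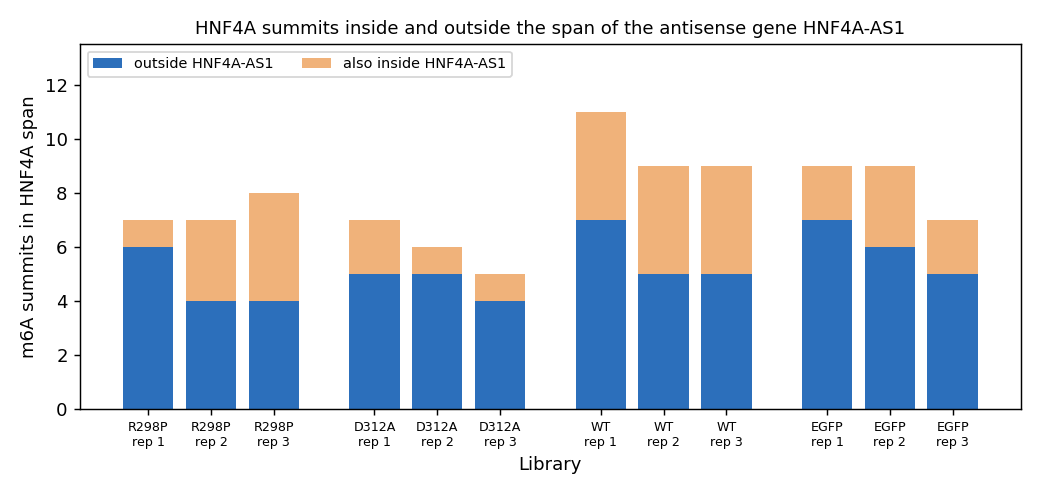
Bars give the number of m6A summits in the HNF4A span for each library, split into those outside the HNF4A-AS1 span (blue) and those also inside it (orange). WT libraries hold 4 summits each in the shared stretch, while R298P libraries hold 1 to 4 and D312A libraries 1 or 2.

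The FOXA genes encode 3 forkhead factors with closely related DNA-binding domains, and their summit counts differed in pattern. FOXA1 (chromosome 14, 37589552 to 37595249) held 3, 5 and 3 summits in R298P replicates 1, 2 and 3, 5, 5 and 3 in D312A, 4, 4 and 4 in WT, and 2, 4 and 3 in EGFP. All pairs of lines overlapped. Its regions 1 and 5 (37591340 to 37591355 and 37592475 to 37592495) were each present in 11 libraries. EGFP replicate 1 had no summit in region 1, and R298P replicate 1 had none in region 5. Region 6, between 102 and 203 nt after the start, was present in 2 R298P, 1 D312A, 1 WT and 0 EGFP libraries.

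FOXA2 (chromosome 20, 22580998 to 22585490) held 3, 3 and 3 summits in R298P replicates 1, 2 and 3, and 2, 1 and 2 in D312A, against 4, 4 and 4 in WT and 3, 4 and 3 in EGFP. The WT count was the same in every library, and both substitution lines lay below it without overlap. D312A also lay below EGFP without overlap, whereas R298P and EGFP shared the value 3. The differences were -1.0 for R298P minus WT, -2.33 for D312A minus WT and -1.67 for D312A minus EGFP (exact permutation test, two-sided, p = 0.1 each).

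The summits of FOXA2 were spread differently over the gene between lines and, for regions 1 and 2, also between replicate numbers. Region 3 (22582555 to 22582646) had no summit in any R298P library, had one in 2 D312A libraries, and had one in all WT and all EGFP libraries. Region 4 (22582770 to 22582822) was present in 1 R298P and 0 D312A libraries, and in all WT and all EGFP libraries. On the lower-coordinate side, region 1 (22581758 to 22581772) was present in all R298P and all D312A libraries, in 1 WT and 2 EGFP libraries. Region 2 (22581995 to 22582008) was present in 3 R298P, 0 D312A, 2 WT and 1 EGFP libraries. By replicate number, region 1 was in 4 of 4 libraries of replicate 1 and 5 of 8 of replicates 2 and 3, and region 2 in 1 of 4 and 5 of 8. In WT, replicate 1 held region 1, and replicates 2 and 3 held region 2 instead. Region 1 ranked between 13.6% and 42.5% from the top where present. Regions 3 and 4 were weaker, with median ranks of 64.3% and 76.2%. With summits merged within 200 nt these neighbours joined, and FOXA2 had no region lost or gained in any of the 5 comparisons.

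FOXA3 (chromosome 19, 45864326 to 45873797) held 2, 1 and 2 summits in R298P replicates 1, 2 and 3 and 2, 2 and 3 in D312A, against 3, 4 and 2 in WT and 4, 4 and 3 in EGFP. R298P lay below EGFP without overlap (-2.0 summits, exact permutation test, two-sided, p = 0.1) and overlapped WT. All 4 of its regions lay within 1346 nt of the end of the span. Region 3 (45872963 to 45872978) was present in every library, with ranks of 4.17%, 68.5% and 17.9% in R298P replicates 1, 2 and 3, 15.1%, 10.1% and 18.8% in D312A, 9.14%, 11.6% and 12.7% in WT, and 19.9%, 7.67% and 6.26% in EGFP. R298P replicate 2 stood alone with a weak peak there. Region 1 (45872451 to 45872483) was present in 0 R298P, 1 D312A, 1 WT and 3 EGFP libraries.

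CEBPA and CEBPB encode leucine zipper factors, of which the first restrains proliferation and the second is induced by acute-phase signals. CEBPA (chromosome 19, 33299934 to 33302534) held 2, 2 and 2 summits in R298P replicates 1, 2 and 3, 2, 1 and 1 in D312A, 3, 1 and 1 in WT, and 2, 1 and 1 in EGFP. The lines overlapped. Its summits followed the replicate number instead. Region 2 (33301407 to 33301422), 1113 to 1128 nt after the start, was present in 8 of 8 libraries of replicates 2 and 3 and in 1 of 4 of replicate 1, that of EGFP. Of the 21 regions of the 9 genes present in at least 8 libraries, 3 had such a pattern, the others being HNF4A region 1, with WT as the replicate 1 library, and FOXA1 region 2, with D312A. Over all 8690 regions present in at least 8 libraries the share was 0.955%. The neighbouring region 1 was present in 3 of the 4 replicate 1 libraries and in R298P replicate 2, and region 3 in all 4 replicate 1 libraries and in R298P replicate 3. The opposite pattern, presence in at least 3 replicate 1 libraries and in no other, was seen in 2 of 10, HNF4A region 11 and CEBPB region 3, and in 7.19% of the 4787 regions present in 3 or 4 libraries. Both patterns were described after these regions were seen, so the shares set beside them test nothing. The names of the deposited lists also set replicate 1 of all 4 lines apart from the rest.

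CEBPB (chromosome 20, 50190583 to 50192690) held 5, 2 and 2 summits in R298P replicates 1, 2 and 3 and 3, 2 and 3 in D312A, against 4, 4 and 4 in WT and 4, 1 and 4 in EGFP. D312A lay below WT without overlap (-1.33 summits, exact permutation test, two-sided, p = 0.1), and R298P spanned the WT value. Region 2 (50191599 to 50191611) was present in 2 R298P, 0 D312A, 3 WT and 2 EGFP libraries. Region 2 lies in the span of the antisense gene CEBPB-AS1, which ends at 50192069. Outside that span D312A and WT held 2, 2 and 2 summits each, so the D312A difference lay wholly in the shared stretch. CEBPB peaks were weak, with a best rank of 38.6% from the top in any library.

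ONECUT1, a cut-homeodomain factor also called HNF6, held 3, 7 and 5 summits in R298P replicates 1, 2 and 3 and 4, 1 and 4 in D312A, against 6, 4 and 5 in WT and 6, 7 and 3 in EGFP. The lines overlapped. Its span (chromosome 15, 52755053 to 52790336) held regions at both ends and none between. Regions 4 to 9 lay within 1469 nt of the start, and regions 1 to 3 within 2588 nt of the end. Region 2 (52757365 to 52757381) was present everywhere and ranked 2.88% from the top in EGFP replicate 1, the strongest peak of the 9 genes. Region 5 (52789353 to 52789376), 961 to 984 nt after the start, was present in 3 R298P, 0 D312A, 3 WT and 1 EGFP libraries. Its ranks were 63.9%, 41.5% and 74.6% in R298P replicates 1, 2 and 3 and 26.8%, 56.2% and 37.4% in WT. It was lost in D312A against WT also with lists of equal length, but not with summits merged within 200 nt.

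NR5A2, a nuclear receptor of bile acid and cholesterol metabolism, was the gene with the fewest summits. Its span (chromosome 1, 200027710 to 200177415) held 0, 1 and 2 summits in R298P replicates 1, 2 and 3, 0, 0 and 0 in D312A, 0, 1 and 1 in WT, and 4, 3 and 1 in EGFP. D312A lay below EGFP without overlap (-2.67 summits, exact permutation test, two-sided, p = 0.1). With no summit in D312A, the gene was examined only because all EGFP libraries held one, so this call was fixed in advance. R298P and WT each overlapped EGFP. Region 5 (200174471 to 200174526) was present in 2 R298P, 0 D312A, 1 WT and 3 EGFP libraries. Regions 1 to 3, within 20738 nt of the start, were present in EGFP libraries alone, in replicates 1 and 2. None of its summits was among the best 40% of a list, except in 1 EGFP library at 40.0%.

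PROX1, a homeobox factor of hepatocyte migration and lipid control, held 3, 6 and 4 summits in R298P replicates 1, 2 and 3 and 2, 1 and 4 in D312A, against 3, 2 and 4 in WT and 3, 4 and 3 in EGFP. The lines overlapped. Region 7 (chromosome 1, 213997601 to 213997621) was present everywhere, with ranks of 18.9%, 27.9% and 40.3% in R298P replicates 1, 2 and 3, 14.3%, 7.21% and 3.77% in D312A, 13.2%, 10.6% and 13.2% in WT, and 26.7%, 3.61% and 12.8% in EGFP. All R298P values there were weaker than all WT values, again as a description. At the other end of its summits, a stretch of 461 nt (213988006 to 213988466) held 3 regions and was chosen after its values were seen. It had 1, 3 and 1 summits in R298P replicates 1, 2 and 3 and 0, 0 and 1 in D312A, against 0, 0 and 0 in WT and 1, 0 and 0 in EGFP. None of the 3 regions alone was present in all R298P libraries.

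**Figure D3:**
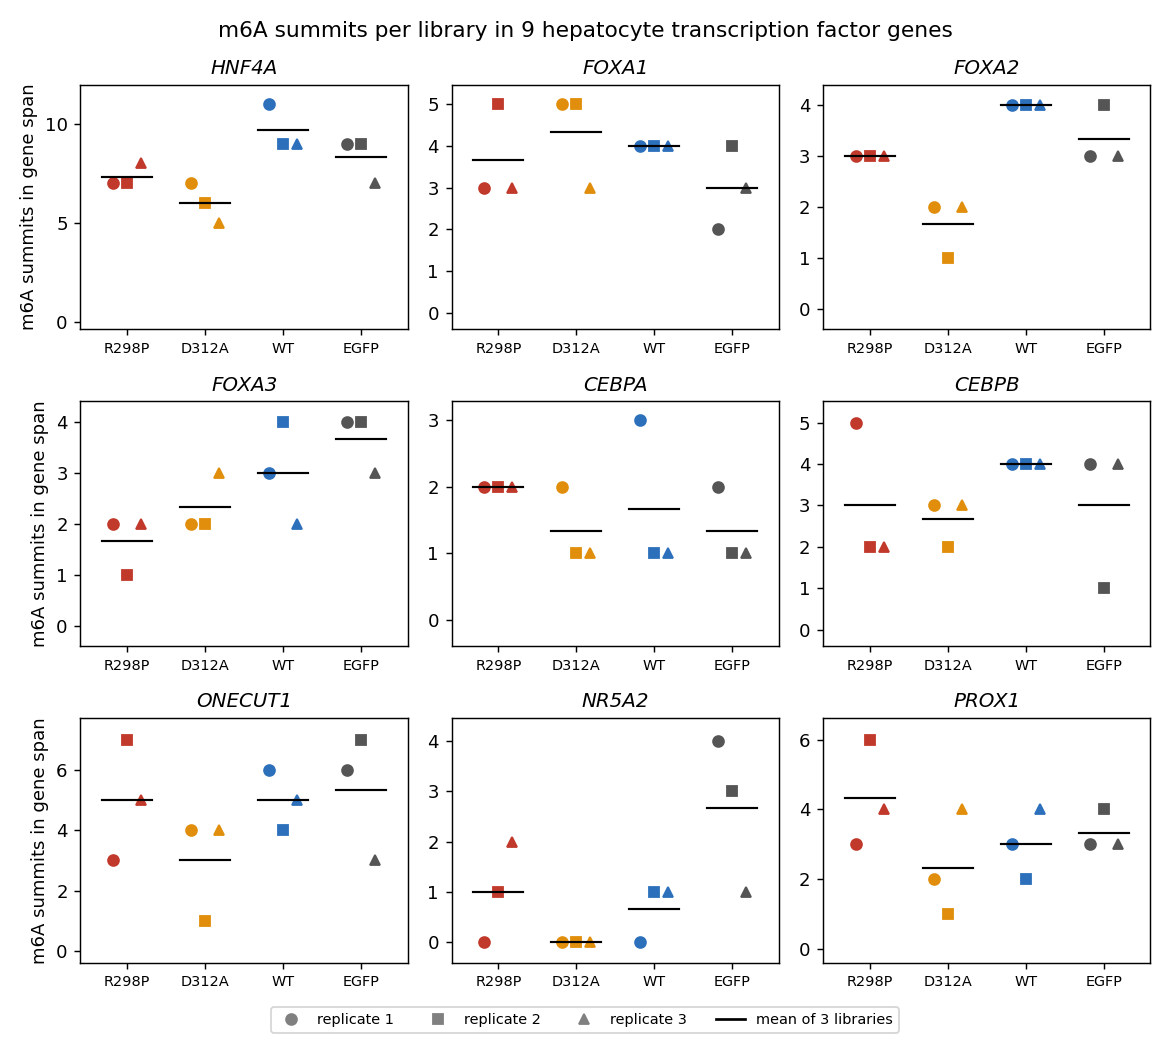
Points give the number of m6A summits in the gene span for each library, with the line on the horizontal axis, the replicate number as the symbol and the mean of 3 libraries as a bar. HNF4A and FOXA2 are lower in all R298P and all D312A libraries than in all WT libraries, while the lines overlap in FOXA1, CEBPA, ONECUT1 and PROX1.

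The first question was whether methylation of these genes differs when METTL14 carries R298P in place of the wild-type residue. HNF4A and FOXA2 held fewer summits in R298P without overlap and 0 members held more. Over the 6630 genes with a summit in at least 3 of the 6 libraries, 4.63% were lower and 1.01% higher in this way, which is the background for the 2 of 9. Since the 9 genes were chosen with earlier results of these data known, this share and those below describe and do not test. Among the 2299 genes with a mean of 2 or more summits the shares were 5.09% and 0.87%. No adjusted p over all genes tested was under 1.0 for any member in any of the 5 comparisons, since 3 against 3 libraries cannot give a small p. Libraries of the same replicate number were taken as pairs, which the labels do not state. Within pairs the same 2 genes were lower in 3 of 3 replicate numbers (exact sign-flip permutation, p = 0.25 each, the smallest possible). Of all genes tested, 8.21% were lower and 1.87% higher in 3 of 3 pairs. With lists of equal length 0 members were without overlap, where 2.89% of genes were lower and 2.4% higher. HNF4A then held 5, 5 and 6 summits in R298P replicates 1, 2 and 3 and 7, 7 and 6 in WT, and FOXA2 turned round, with 2, 3 and 1 in R298P and 1, 2 and 2 in WT.

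Of the regions in the 9 genes, 9 were present in exactly 3 of the 6 R298P and WT libraries. FOXA2 region 3 was the 1 that was lost, and 0 were gained. Over all genes and intergenic space 16.1% of 2946 such regions were lost and 6.65% gained. This loss was not called with merging within 200 nt or with lists of equal length.

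Against EGFP, R298P had FOXA3 lower without overlap and 0 members higher, where 4.38% of 6605 genes were lower and 1.11% higher. Among genes with a mean of 2 or more these were 5.38% and 1.05%. It lost 3 regions (FOXA3 region 1, FOXA2 region 3 and HNF4A region 10 at 44431310 to 44431320) and gained 0 of the 7 in exactly 3 of these 6 libraries. The shares over all such regions, in genes or between them, were 14.6% lost and 7.35% gained. HNF4A region 10 was present in 0 R298P, 2 D312A, 1 WT and 3 EGFP libraries. When lists had equal length 0 members were without overlap, where 3.01% of genes were lower and 2.43% higher, and 0 regions were lost.

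D312A asked the same of the other substitution. Against WT, HNF4A, FOXA2 and CEBPB were lower without overlap among 8 members that could be examined, where 4.8% of 6484 genes were lower and 0.123% higher. Among genes with a mean of 2 or more these were 6.58% and 0.046%. NR5A2 had too few summits for this comparison. D312A lost 5 regions of the 8 in exactly 3 of these 6 libraries: HNF4A region 2, FOXA2 regions 4 and 5, CEBPB region 2 and ONECUT1 region 5. It gained 0, with shares over all such regions, in genes or between them, of 11.6% lost and 1.02% gained. HNF4A region 2 (44359072 to 44359079) lies in the HNF4A-AS1 span and was present in 1 R298P, 0 D312A, 3 WT and 1 EGFP libraries. D312A replicate 2 was the shortest list of all. With lists of equal length ONECUT1 alone was without overlap, with 2, 1 and 2 summits in D312A replicates 1, 2 and 3 and 4, 3 and 3 in WT, where 1.8% of genes were lower and 0.95% higher. The loss of ONECUT1 region 5 remained and the other 4 did not, while HNF4A region 3 (44372336 to 44372395), also in the HNF4A-AS1 span, was lost instead.

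Against EGFP, FOXA2 and NR5A2 were lower in D312A without overlap, where 4.5% of 6407 genes were lower and 0.219% higher. Among genes with a mean of 2 or more these were 5.27% and 0.0925%. NR5A2 had no summit in D312A and was examined only because all EGFP libraries held one, which fixed its call in advance. The lost regions were FOXA2 region 4, NR5A2 region 5 and HNF4A region 8 (44430526 to 44430608), 3 of 9 in exactly 3 of these 6 libraries, with 0 gained. The shares over all such regions, in genes or between them, were 10.8% lost and 1.54% gained. With lists of equal length 0 members were without overlap, where 1.67% of genes were lower and 1.04% higher, and 0 regions were lost.

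WT was set against EGFP to see the lines without either substitution. No member was without overlap in either direction, and of 7 regions in exactly 3 of the 6 libraries 0 were lost and 0 gained. Over all genes 0.827% of 6770 were lower and 1.14% higher, or 0.795% and 1.15% of those with a mean of 2 or more. Of all such regions, in genes or between them, 2.56% were lost and 4.09% gained. HNF4A averaged 9.67 ± 1.15 summits in WT and 8.33 ± 1.15 in EGFP, and FOXA1 averaged 4.0 ± 0.0 and 3.0 ± 1.0 in WT and EGFP (SD, n = 3 each). In lists of equal length 0 members were without overlap, where 0.832% of genes were lower and 1.04% higher. ONECUT1 region 5 was then gained in WT and ONECUT1 region 3 lost.

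**Figure D4:**
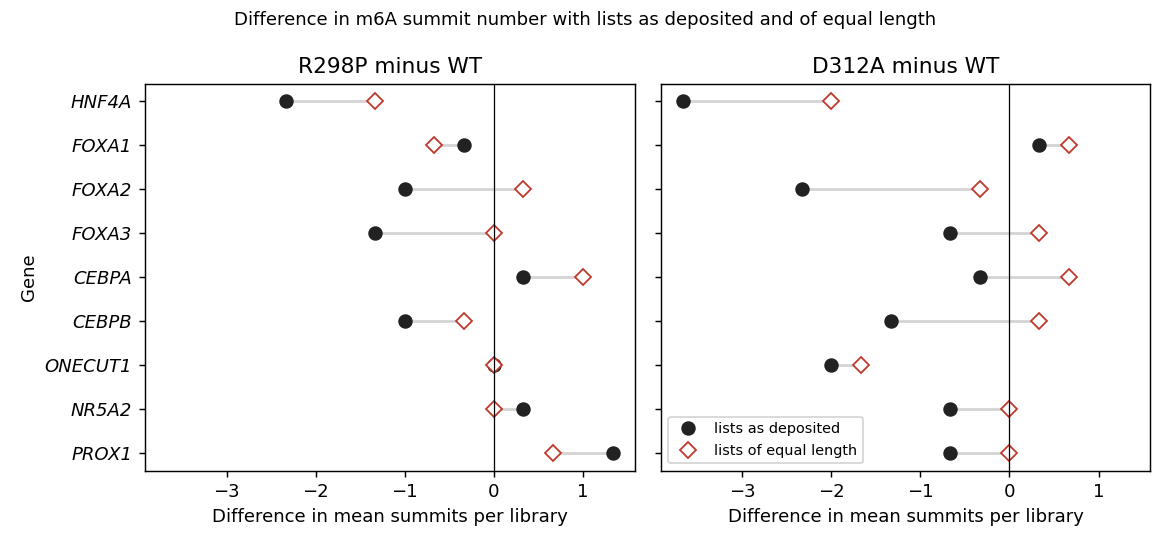
For each gene the horizontal axis gives the mean number of summits per library in R298P (left) or D312A (right) minus that in WT, with lists as deposited (black circles) and with all lists reduced to the length of the shortest (red diamonds). HNF4A stays below 0 in both panels, while FOXA2 moves from below to above 0 in R298P, and FOXA3, CEBPA and CEBPB do so in D312A.

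A comparison of both substitution lines with WT and EGFP was added after the data were examined, because 6 against 6 libraries can give smaller p-values. HNF4A averaged 6.67 ± 1.03 summits in R298P and D312A together and 9.0 ± 1.26 in WT and EGFP together (SD, n = 6 each), with an exact permutation p of 0.0108 and an adjusted p over all genes of 0.847. FOXA2 averaged 2.33 ± 0.816 and 3.67 ± 0.516 in the same groups, with an exact permutation p of 0.0216 and an adjusted p of 0.907. FOXA3 averaged 2.0 ± 0.632 and 3.33 ± 0.816, with an exact permutation p of 0.0346 and an adjusted p of 0.907. In lists of equal length the difference was -0.667 in HNF4A, -0.167 in FOXA2 and -0.167 in FOXA3, against -2.33, -1.33 and -1.33 in the lists as deposited. None passed adjustment, and 4.54% of 6318 genes were lower and 0.095% higher at an unadjusted p under 0.05. The groups overlapped in all 9 genes, where 0.19% of all genes and 0.234% of those with a mean of 2 or more were lower without overlap. Libraries of 1 line are not independent of that line, so these p-values measure the spread between libraries.

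Of 31 other liver transcription factors, 30 held summits, all but CEBPE, and 19 held them in all 12 libraries. Between R298P and WT, 0 of the 25 that could be examined were without overlap, where 4.63% of 6630 genes were lower and 1.01% higher. In D312A, NR1I2 and PPARA were lower than in WT, 2 of 25 examined, where 4.8% of 6484 genes were lower. Both lost regions in R298P and in D312A against WT. NR1I2, a nuclear receptor for xenobiotics, held 0, 0 and 0 summits in D312A against 1, 3 and 3 in WT and 1, 1 and 1 in EGFP. It was lower in D312A than in EGFP too, 1 of 26 examined, where 4.5% of 6407 genes were lower. Without summits in D312A it was examined only through WT or only through EGFP, so both calls were fixed in advance. It lost 1 region in R298P and 2 in D312A against WT, and 1 in D312A against EGFP, but also gained 2 in WT against EGFP. WT replicate 1 held only 1 summit in the span, so not both regions lost in D312A had a summit of that library inside it. PPARA, a nuclear receptor of fatty acid oxidation, held 5, 1 and 6 in D312A and 11, 7 and 9 in WT. Against EGFP it lost 1 region in R298P and 1 in D312A. NFIB, a nuclear factor I protein, was the 1 factor without overlap between WT and EGFP, with 0, 0 and 0 summits in WT and 2, 1 and 1 in EGFP. Over all genes 0.827% of 6770 were lower in this comparison, and without summits in WT the NFIB call too was fixed in advance. TBX3, a T-box factor of liver growth, held 4, 2 and 3 summits in R298P and 2, 2 and 2 in WT. It gained 1 region in R298P against WT and 1 against EGFP. RXRA, the partner of many nuclear receptors, lost 1 region in R298P against EGFP. Of 24 target genes of these factors, 21 held summits, and 1 held them in all 12 libraries. Between 15 and 17 could be examined in each of the 5 comparisons, and 0 were without overlap. Over all genes 0.827% to 4.8% were lower and 0.123% to 1.14% higher in these comparisons. Among the target genes TF, which encodes transferrin, lost 2 regions in R298P against WT and 1 against EGFP. Its counts spread from 3 to 9 in R298P libraries, from 6 to 16 in WT libraries and from 1 to 15 in EGFP libraries. How many regions of these other genes were in exactly 3 of 6 libraries is not given, so their region calls have no share. Over all such regions 16.1% were lost and 6.65% gained in R298P against WT. These shares were 11.6% and 1.02% in D312A against WT, and 14.6% and 7.35% in R298P against EGFP. They were 10.8% and 1.54% in D312A against EGFP, and 2.56% and 4.09% in WT against EGFP.

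Input RNA of R298P and WT was compared by the authors. The Ensembl identifiers of the 9 genes were entered by hand, because no table used here pairs the identifiers with symbols, and this pairing could not be checked. None of the 9 genes in the authors' deposited table passed an adjusted p of 0.05, where 2.74% of 42677 genes and 7.01% of the 15164 genes with a mean log2 CPM of at least 0 did. At an unadjusted p under 0.05 the authors' deposited table held 5 of the 9, against 10.7% and 20.7% of these genes. These 5 were HNF4A, FOXA1, FOXA3, ONECUT1 and NR5A2. The header does not say which line is the numerator, so the sizes below carry no direction. NR5A2 came nearest to passing in the authors' deposited table, with an absolute log2 fold change of 0.84 and an adjusted p of 0.0648, at a mean log2 CPM of 0.73. HNF4A had an absolute log2 fold change of 0.20 in the authors' deposited table (adjusted p = 0.446, mean log2 CPM 8.31). FOXA2 had the smallest change of the 9 in the authors' deposited table, with an adjusted p of 0.999 at a mean log2 CPM of 6.27. For FOXA1, FOXA3 and ONECUT1 the authors' deposited table gave 0.24, 0.24 and 0.28, with adjusted p-values of 0.182, 0.337 and 0.25. The part of RNA amount in the summit counts was not tested.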

How the data were processed

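Poly(A) RNA of 4 HepG2 lines was measured as 12 precipitated and 12 input libraries. Per the submitters' processing notes, the tools included Trim Galore 0.4.4, STAR 2.7.9a and MACS2 2.1.2 on hg38. The deposited summit lists, 1 per precipitated library and not pooled, give each summit a value read as the -log10 of a p or q value, which one not being stated, with a lowest value of about 5. Read depth of the libraries is unknown from these lists, so no counting interval is given. The authors' deposited expression table, by its header, sets WT input beside R298P input with log2 fold changes and mean log2 CPM. It also holds the authors' likelihood ratio score and their p-value and FDR per gene, and featureCounts and edgeR are in the submitters' processing notes. Its 18 per-library columns were not used, because their names could not be tied to the labels.

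Summits were counted in RefSeq gene spans (GRCh38.p14) and merged into regions within 100 nt. Lines were compared by whether their summit numbers overlapped, over genes with a summit in at least 3 of the 6 libraries, with a two-sided exact permutation test over 20 assignments and Benjamini-Hochberg adjustment over all such genes. A region was lost or gained when present in 0 of 3 against 3 of 3 libraries. The scripts (Python 3.11.15, numpy 2.4.6, pandas 2.3.3) were tested on simulated data. Deviations of same-numbered R298P and WT libraries correlated over genes at 0.484, 0.187 and 0.218 for replicates 1, 2 and 3, and their numbers were taken as pairs. Libraries of different numbers gave -0.354 to 0.203, a range that holds the value of replicate 2, so the pairing is uncertain. Every other comparison had at least 1 same-number correlation of 0.1 or less. Alternatives were lists of equal length, summit values of at least 10, spans extended by 500 nt, other merging distances, summits in 1 protein-coding span only, leaving out each replicate and the replicate block. Counting only summits in no other gene span, joining the substitution lines, and the patterns by replicate number were chosen after seeing the data. The genes, lists and tests were chosen with earlier results of these data known. Other genes are named where their summit numbers did not overlap or they held a lost or gained region, except 1 that is not reported here.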

Additional observations from a re-analysis of the deposited data

How the results depend on the processing

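The counts of genes without overlap were 2 for R298P against WT, 1 for R298P against EGFP, 3 for D312A against WT, 2 for D312A against EGFP and 0 for WT against EGFP. With lists of equal length they were 0, 0, 1, 0 and 0 in that order, and FOXA2 in R298P minus WT and CEBPB in D312A minus WT turned round to 0.333 summits each. With summit values of at least 10 the count was 0 for R298P against EGFP, 0 for D312A against EGFP and 1 for WT against EGFP, which was HNF4A, higher in WT. It was 2 for R298P against WT, but HNF4A and FOXA1 in place of HNF4A and FOXA2, and 2 for D312A against WT, HNF4A and ONECUT1, with FOXA2 and CEBPB no longer called. With summits in no other gene span it was 1 for R298P against WT and 1 for D312A against WT, FOXA2 in both. Leaving out 1 replicate number gave 3 to 4, 1 to 3, 4 to 5, 3 to 7 and 0 to 2 genes in the order above, and 0 to 2 for both substitution lines together against WT and EGFP together. These counts can only stay or grow, since 2 libraries a line overlap less often than 3. They join both directions. Without replicate 1, CEBPA was higher in R298P than in WT and than in EGFP. FOXA1 was higher in D312A than in WT and than in EGFP without replicate 3. Without replicate 2, FOXA1 and FOXA2 were higher in WT than in EGFP. No share over all genes is given for these counts, for values of at least 10 or for summits in no other gene span.

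The numbers of lost or gained regions were 1, 3, 5, 3 and 0 in the same order. Merging within 200 nt gave 0 for R298P against WT, 1 for R298P against EGFP and 1 for D312A against WT. With lists of equal length they were 0, 0, 2, 0 and 2. With values of at least 10 they were 0 for R298P against EGFP, 3 for D312A against WT, 0 for D312A against EGFP and 1 for WT against EGFP. Leaving out 1 replicate number gave 2 to 6, 5 to 10, 6 to 10, 3 to 9 and 1 to 6. These totals join lost and gained regions. At most 2, 3, 1, 0 and 3 of them were gained, in the same order. For these alternative settings neither the number of regions that could be called nor a share over all regions is given. With the replicate block, the genes of 1 sign in all pairs were 2 for R298P against WT, the same HNF4A and FOXA2. Over all genes tested 8.21% were lower and 1.87% higher in this way. The block gave 1, 4, 3 and 0 in the other comparisons, where the numbers were not taken as pairs. Nor were they for both substitution lines together against WT and EGFP together. There the block gave 2, HNF4A and FOXA2, where 0 were without overlap. No share over all genes is given for the block in any of these comparisons. Of 432 single-gene differences under alternatives, 22 changed sign, 2 of them (FOXA2 and CEBPB, above) where the lines had not overlapped, and the cause was not tested.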
